A study of Homo sapiens with 6 samples.

Results

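The 10 genes described here belong to the mesenchymal and substrate-adherent cell state and were measured in SH-SY5Y neuroblastoma cells that expressed a dominant-negative TRF2: CAV1, CAV2, LUM, SPARC, CD44, VIM, ANXA1, ANXA2, LGALS1 and SOX9. They are the genes of a fixed list of 10 symbols that have a spot on the array, and all 10 did, out of 6255 genes measured. They lie on 16 of the 9169 spots tested, with 5 spots for ANXA2, 2 each for CAV1 and SPARC and 1 for each of the other 7 genes. The list was drawn up with differences between these same arrays known. Its differences between DN-TRF2 and control cells are therefore given as a description, with no test.

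The DN-TRF2 group holds 3 arrays of cells transfected with the vector pIRES2-EGFP carrying a dominant-negative form of TRF2, a telomere-binding protein of the shelterin complex. The GFP control group holds 3 arrays of cells transfected with pEGF-C2 without an insert. Both groups were selected in geneticin at 500 µg/ml and harvested on day 7 after transfection, in 3 independent experiments per the labels. The backbones differ between the groups, so insert and backbone cannot be told apart. The labels do not say whether the selected cells were clones. About 5 µg of total RNA per sample was labelled with 33P and hybridized in 1 channel to an array of 9600 cDNA spots, and median deposited intensity over the tested spots ran from 480 to 712. No spot used here carries the name of TRF2's own gene, TERF2, so the labels could not be checked against it.

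Neuroblastoma cultures hold neuroblastic cells, which grow neurites and attach loosely, and flat substrate-adherent cells with mesenchymal features, which attach firmly and make matrix proteins. SH-SY5Y is a neuroblastic line. The adherent state is marked by caveolae, vimentin filaments, the hyaluronan receptor CD44, annexins, galectin-1 and secreted matrix proteins, and SOX9 is a transcription factor of the neural crest from which both cell kinds derive. In a bulk sample, a change in the number of cells of a type and a change in RNA per cell cannot be told apart.

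The array could not settle the cell type from levels, because signals of different spots are not comparable. Of 20 neuroblast identity genes listed, 11 were measured, among them DBH, an enzyme of noradrenaline synthesis, and GATA3, and 21 of their 22 spots gave a signal above the stand-in value of 10 on all arrays. The same held for 16 of 17 spots of epithelial markers and 4 of 4 spots of blood markers, though not for the 1 endothelial spot. A signal above the stand-in was therefore not specific to the labelled cell type.

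CAV2 and CAV1, which encode caveolins, are neighbours on chromosome 7, with 0 protein-coding genes between them. The 250 bases before the first listed start of each are shown, together with those of VIM. These genes were picked with their array values known, and a relation between sequence and array values was not tested. Sequences are from RefSeq, build GRCh38.p14, read 5′ to 3′ on the plus strand, and lie at chr7:116499488-116499737 for CAV2, chr7:116524759-116525008 for CAV1 and chr10:17227991-17228240 for VIM. Capitals mark GC boxes (GGGCGG or its reverse complement CCGCCC), the motif read by SP1-type factors.
CAV2: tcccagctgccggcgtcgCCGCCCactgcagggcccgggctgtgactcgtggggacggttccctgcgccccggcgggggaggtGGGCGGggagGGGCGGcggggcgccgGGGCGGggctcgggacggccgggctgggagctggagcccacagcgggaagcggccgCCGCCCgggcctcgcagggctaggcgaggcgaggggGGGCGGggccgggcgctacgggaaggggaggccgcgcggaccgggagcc
CAV1: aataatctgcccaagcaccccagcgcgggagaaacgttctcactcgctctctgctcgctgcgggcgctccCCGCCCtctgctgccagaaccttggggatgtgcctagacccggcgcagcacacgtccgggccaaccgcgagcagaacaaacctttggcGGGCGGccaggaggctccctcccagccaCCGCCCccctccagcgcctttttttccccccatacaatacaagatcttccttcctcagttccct
VIM: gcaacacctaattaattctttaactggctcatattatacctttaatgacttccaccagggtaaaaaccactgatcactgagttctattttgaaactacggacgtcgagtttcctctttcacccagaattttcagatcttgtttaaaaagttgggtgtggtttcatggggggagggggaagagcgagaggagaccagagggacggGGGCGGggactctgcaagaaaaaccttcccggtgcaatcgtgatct
The CAV2 window holds 6 GC boxes at a GC content of 83.2%, the CAV1 window 3 at 63.6%, and the VIM window 1 at 46.0%. These numbers depend on the start that is read. The window of the second listed CAV2 start holds 3 at 70.0%, and that of the third CAV1 start 2 at 73.2%. At least 1 GC box occurs in 42.6% of all 35116 windows of that length, whose median GC content is 58.0%.

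Promoter windows were listed for 7 of the 10 genes, with 10 starts. On both strands a GC box was found at 8 of these 10 starts. The windows of the first and second CAV1 starts overlap and share their 3 GC boxes, so the starts are not separate counts. The telomeric hexamer TTAGGG, the repeat that TRF2 binds in tandem copies at chromosome ends, was found once at each of 2 starts, against 7.94% of all windows. They are the second listed start of CAV2, where it shares letters with a GC box, and the third of CAV1, and both lie downstream of the windows printed above. TATAAA was found at the starts of ANXA1 and ANXA2 (10.7% of all windows), TGANTCA, the AP-1 motif, at that of ANXA2 (6.57%), and GGAATG, the TEAD motif, at that of SPARC (11.9%). CCAAT was found at that of ANXA1 (32.0%), and CACCTG, an E-box read by SNAI and ZEB factors, at 0 of 10 (17.5%). A match describes the letters of the window and does not show binding.

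**Figure D1:**
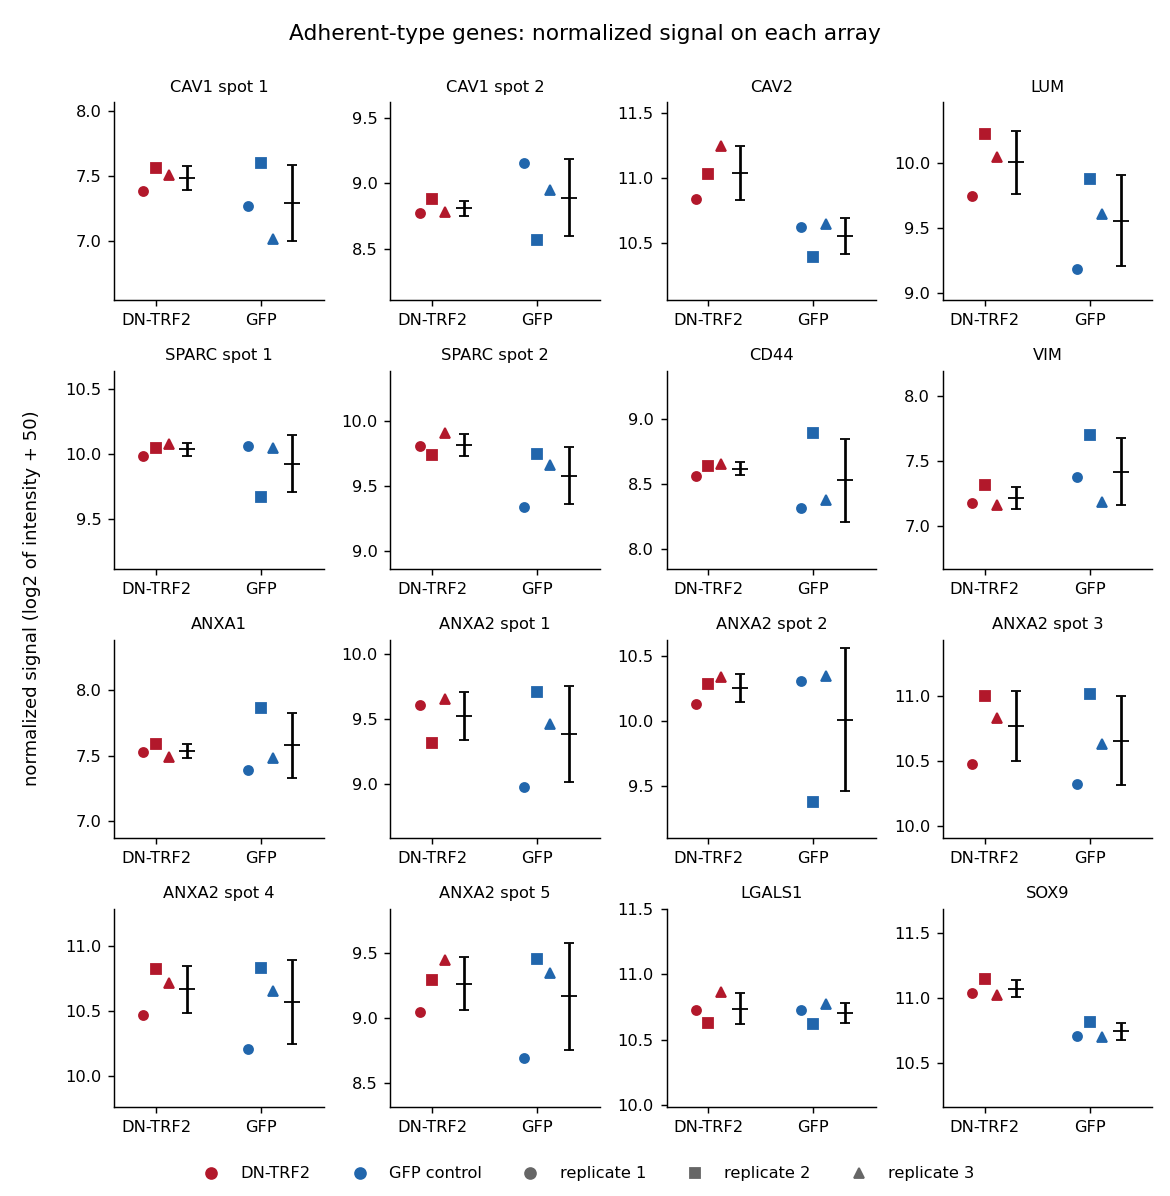
Normalized signal of the 16 spots on each array, as log2 of intensity plus 50 after quantile normalization, with the 3 DN-TRF2 arrays (red) left of the 3 GFP control arrays (blue). Marker shape gives the replicate number and black bars the mean ± SD (n = 3). Each panel spans the same log2 range. The groups separate at CAV2 and SOX9, and the controls spread more than the DN-TRF2 arrays at 13 of 16 spots.

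Values below are normalized signals on the log2 scale, and differences are DN-TRF2 minus GFP control with the standard error (SE) from a limma fit over all spots. That fit held the group alone, so the SE does not use the pairing by replicate number. Across the 9169 spots, limma at a Benjamini-Hochberg adjusted p under 0.05 called 0 spots higher and 0 lower (0.0% each), with a smallest adjusted p of 0.999. Before adjustment, 313 of the 9169 spots had p under 0.05, or 527 with the replicate number as a block. With no difference at any spot, a share of about 0.05 of the spots would have such a p. The count of 313 became 792 with GFP control replicate 2 left out and 655 with GFP control replicate 3 left out. It was 141 or 154 when DN-TRF2 replicate 2 or 3 was left out.

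With spots averaged per gene, 8 of the 10 genes had a higher mean in DN-TRF2 cells, with CAV2, LUM and SOX9 showing the largest differences of the list. VIM and ANXA1 had a lower mean. The median difference over the 10 genes was 0.11 on the log2 scale, against -0.0067 over all 6255 genes, of which 48.0% had a higher mean. By replicate number the genes' median difference was 0.21, 0.10 and 0.15 at numbers 1, 2 and 3, against -0.014, -0.033 and 0.0025 over all genes. Over the 16 spots, not averaged per gene, the medians were 0.18, -0.010 and 0.15, and at number 2 only 7 of 16 spots were higher. The median over genes came to 0.17 without GFP control replicate 2, and to 0.25 over the 6 genes left without the spots below median signal. That filter left out CAV1, CD44, VIM and ANXA1, and so both genes with a lower mean. The differences at the spots it kept were unchanged.

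The groups did not overlap, with DN-TRF2 higher, at 2 of the 16 spots (CAV2 and SOX9), where 4.28% of all spots do so. At 0 of the 16 was DN-TRF2 lower without overlap (4.43% of all spots). DN-TRF2 was higher at all 3 replicate numbers at 3 spots (CAV2, LUM and SOX9; 11.0% of all spots) and lower at all 3 at 1 spot (VIM; 14.9% of all spots). The other 12 spots had both directions. Because the list was chosen on this contrast, these counts describe it and test nothing.

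Caveolins form the coat of caveolae, small pits of the plasma membrane. CAV1 is the main coat protein, and CAV2 needs CAV1 to reach the surface. CAV2 had signals of 10.84, 11.03 and 11.25 on the DN-TRF2 arrays, against 10.63, 10.40 and 10.65 on the GFP control arrays. All 3 DN-TRF2 arrays lay above all 3 controls. The group means were 11.04 ± 0.20 in DN-TRF2 and 10.56 ± 0.14 in GFP control cells (SD, n = 3 each), a difference of 0.48 ± 0.16 (SE), or 1.40-fold on the offset scale. In the deposited intensities, before normalization, the same spot read 1600.3, 2017 and 2608 in DN-TRF2, against 1285, 1273 and 1863 in GFP control cells. There the groups overlapped, control replicate 3 being the array of highest median intensity. The difference at CAV2 was 0.22, 0.63 and 0.60 at replicate numbers 1, 2 and 3, and stayed between 0.38 and 0.59 with any 1 array left out.

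CAV1 did not share this pattern. Its first spot had signals of 7.39, 7.56 and 7.51 in DN-TRF2, against 7.27, 7.60 and 7.01 in GFP control cells, and its second had 8.77, 8.88 and 8.78 against 9.16, 8.57 and 8.95. At both spots the DN-TRF2 arrays lay inside the range of the controls. The differences were 0.19 ± 0.17 and -0.081 ± 0.17 (SE), and so of opposite sign. The first was 0.052 without GFP control replicate 3 and 0.34 without GFP control replicate 2, and the second was 0.051 without GFP control replicate 1 and -0.24 without GFP control replicate 2. Over the 6 arrays the 2 CAV1 spots correlated at -0.62, against a median of 0.12 between the first and last spot of the 1481 genes with at least 2 spots. These correlations rest on 6 arrays that share the normalization. The first spot was dim, with a mean signal of 7.39 against 8.85 at the second and a median of 9.29 over all spots. The values at CAV1 therefore depend on which of its spots is read.

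Lumican (LUM), a small leucine-rich proteoglycan that organizes collagen fibrils, had the second largest difference of the list. Its signals were 9.74, 10.22 and 10.04 in DN-TRF2, against 9.19, 9.88 and 9.60 in GFP control cells. The groups overlapped, since control replicate 2 lay above DN-TRF2 replicate 1. Within each replicate number DN-TRF2 was the higher, by 0.55, 0.34 and 0.44. The difference of 0.45 ± 0.20 (SE) was 0.26 without GFP control replicate 1 and 0.14 once the median of each run of 96 neighbouring spots was removed per array, a check on position.

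SPARC, a matricellular protein that binds collagen and loosens cell attachment, had higher means at both of its spots. The first read 9.99, 10.05 and 10.08 in DN-TRF2, against 10.06, 9.68 and 10.05 in GFP control cells, and the second 9.81, 9.73 and 9.90 against 9.33, 9.74 and 9.66. Each spot had 1 low control array, which was replicate 2 at the first spot and replicate 1 at the second. The differences were 0.11 ± 0.15 and 0.24 ± 0.16 (SE), and the first was -0.017 without GFP control replicate 2. The second was 0.11 without GFP control replicate 1 and 0.44 with the position check. With the spots averaged, SPARC was higher at all 3 replicate numbers, by 0.20, 0.18 and 0.14. The 2 spots nevertheless correlated at -0.15 over the 6 arrays.

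**Figure D2:**
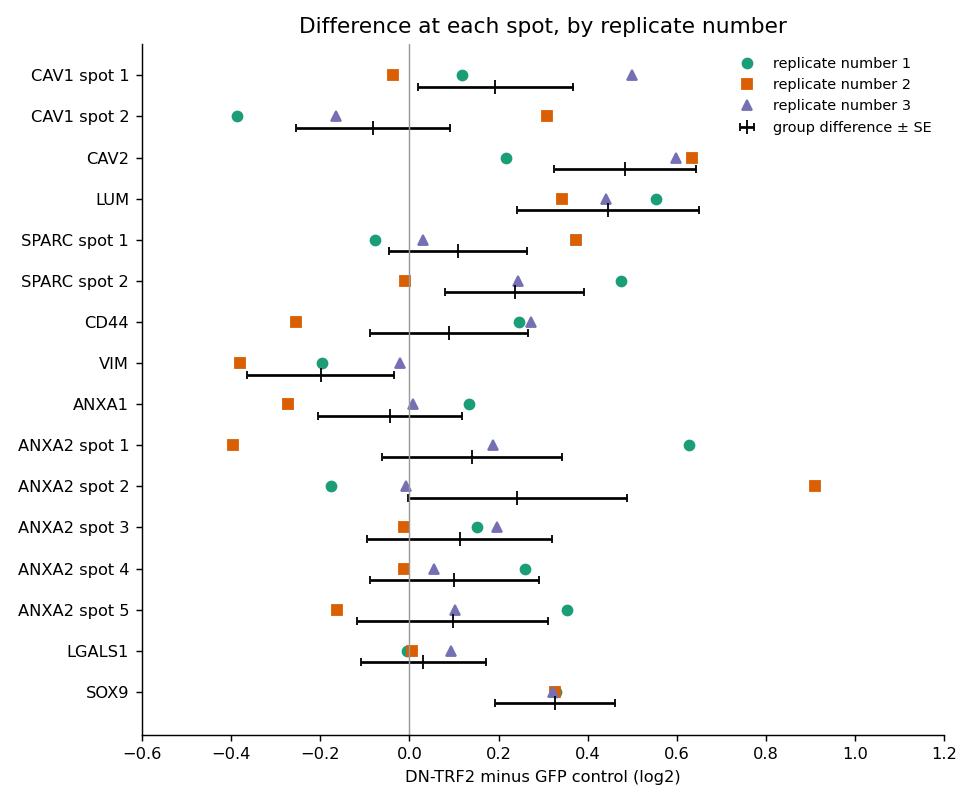
Difference between DN-TRF2 and GFP control (log2) at each of the 16 spots within replicate numbers 1, 2 and 3 (coloured markers), with the group difference ± SE (black). All 3 markers lie right of 0 at CAV2, LUM and SOX9 and left of 0 at VIM. The markers of SOX9 coincide near 0.33.

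CD44, the main receptor for hyaluronan, had signals of 8.56, 8.64 and 8.65 in DN-TRF2, against 8.32, 8.89 and 8.38 in GFP control cells. All DN-TRF2 values lay within the control range. The difference of 0.088 ± 0.18 (SE) was -0.25 at replicate number 2 and 0.25 and 0.27 at numbers 1 and 3. It was 0.27 without GFP control replicate 2, and changed sign, to -0.018, without GFP control replicate 1, and to -0.11 with the position check.

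Vimentin (VIM), the intermediate filament protein of mesenchymal cells, went the other way from most of the list. Its signals were 7.18, 7.32 and 7.16 in DN-TRF2, against 7.37, 7.70 and 7.18 in GFP control cells. The lowest control lay within the DN-TRF2 range, so the groups overlapped. DN-TRF2 was the lower at each replicate number, with differences of -0.20, -0.38 and -0.022, and the group difference was -0.20 ± 0.16 (SE). Leaving out GFP control replicate 2 gave -0.059, and leaving out GFP control replicate 3 gave -0.31. The spot was dim, with a mean signal of 7.32 against a median of 9.29 over all spots.

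The annexins bind phospholipid membranes in the presence of calcium. ANXA1, known for anti-inflammatory action, had signals of 7.52, 7.59 and 7.49 in DN-TRF2, against 7.39, 7.86 and 7.48 in GFP control cells. The DN-TRF2 arrays lay within the control range, with a difference of -0.043 ± 0.16 (SE) that was 0.097 without GFP control replicate 2. Like that of VIM, the spot was dim, with a mean signal of 7.56.

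ANXA2, which with S100A10 promotes plasmin formation at the cell surface, had 5 spots, and all 5 had a higher mean in DN-TRF2 cells, by 0.098 to 0.24 with standard errors of 0.19 to 0.25. The third spot, the brightest, read 10.48, 11.00 and 10.83 in DN-TRF2, against 10.33, 11.01 and 10.63 in GFP control cells. The fourth read 10.47, 10.82 and 10.71 against 10.21, 10.83 and 10.66. The groups overlapped at each of these, and the lowest array was control replicate 1. The fifth spot read 9.05, 9.30 and 9.45 in DN-TRF2, against 8.70, 9.46 and 9.35 in GFP control cells, and the first 9.60, 9.31 and 9.65 against 8.98, 9.71 and 9.46. Without GFP control replicate 1 the differences at these 4 spots were -0.054, -0.075, -0.14 and -0.062, and without GFP control replicate 2 they were 0.29, 0.23, 0.24 and 0.30. Their sign thus rested on that array. At the third spot it also turned without DN-TRF2 replicate 2 (-0.0022), and at the first with the position check (-0.057).

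The second ANXA2 spot had another profile. It read 10.13, 10.29 and 10.34 in DN-TRF2, against 10.31, 9.38 and 10.35 in GFP control cells. Control replicate 2, the highest array at the other 4 spots, was here the lowest. After removal of the group means this spot correlated with the other 4 at between -0.66 and -0.43, while those 4 correlated with one another at between 0.51 and 0.96. Its difference of 0.24 ± 0.25 (SE) became -0.074 without GFP control replicate 2 and 0.41 without GFP control replicate 3. All 5 clones carry the same gene name in the platform annotation, which was not checked against clone sequence.

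**Figure D3:**
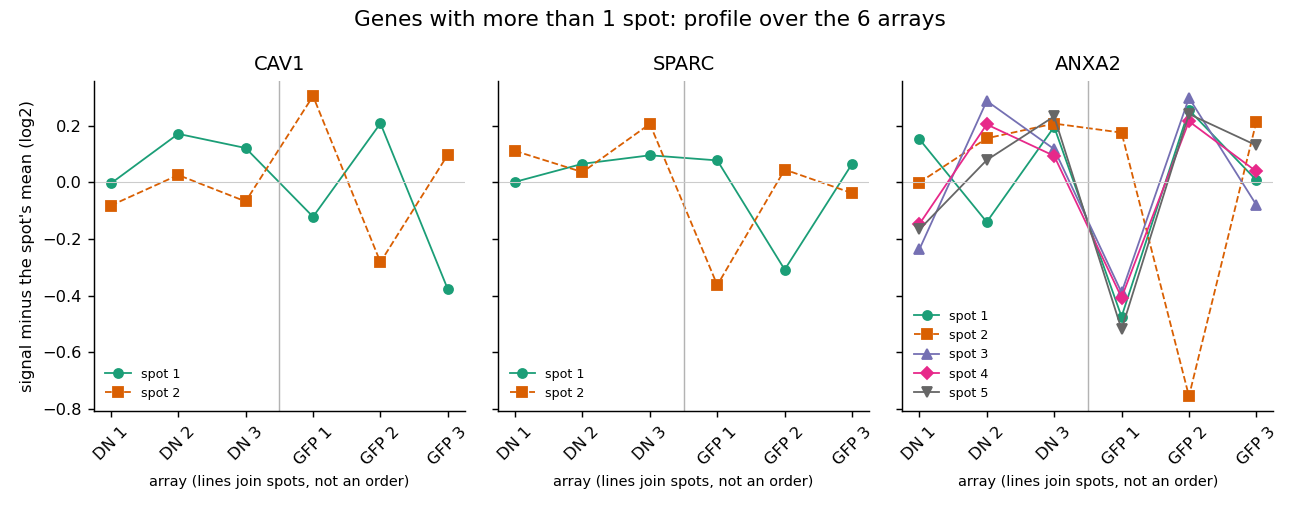
Signal minus the spot's own mean (log2) on the 3 DN-TRF2 and 3 GFP control arrays for the genes with more than 1 spot. Lines join the values of 1 spot and imply no order of arrays. ANXA2 spots 1, 3, 4 and 5 are lowest on GFP control replicate 1, while ANXA2 spot 2 is lowest on GFP control replicate 2. The 2 spots of CAV1 lie on opposite sides of their means on all 3 GFP control arrays.

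Galectin-1 (LGALS1), a galactoside-binding lectin of mesenchymal cells, had nearly equal signals in the groups. They were 10.72, 10.63 and 10.86 in DN-TRF2, against 10.73, 10.62 and 10.77 in GFP control cells. The difference was 0.031 ± 0.14 (SE), and at replicate numbers 1 and 2 it was -0.0062 and 0.0053. The sign turned without DN-TRF2 replicate 3 (-0.032), without GFP control replicate 2 (-0.012) and with median scaling in place of quantile normalization (-0.031). The difference was 0.087 without DN-TRF2 replicate 2.

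SOX9, a transcription factor of neural crest cells and cartilage, had the smallest SE of the list. Its signals were 11.04, 11.15 and 11.02 in DN-TRF2, against 10.71, 10.82 and 10.70 in GFP control cells. The groups did not overlap, and the differences at replicate numbers 1, 2 and 3 were 0.33, 0.33 and 0.32. Group means were 11.07 ± 0.065 in DN-TRF2 and 10.74 ± 0.064 in GFP control cells (SD, n = 3 each), a difference of 0.33 ± 0.13 (SE), or 1.25-fold on the offset scale. The deposited intensities were 1838, 2155 and 2261 in DN-TRF2, against 1377, 1754 and 1924 in GFP control cells, and overlapped between groups. With 1 array left out the difference ran from 0.29 to 0.36. It was lowest, at 0.25, by median scaling.

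**Figure D4:**
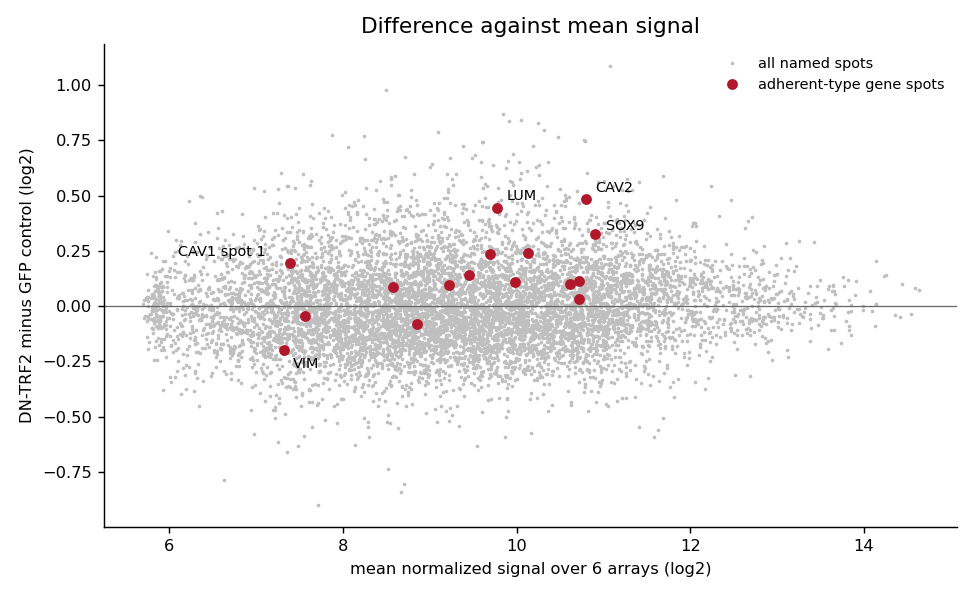
Difference between DN-TRF2 and GFP control (log2) against mean normalized signal over the 6 arrays, for all named spots (grey) and the 16 spots of the adherent-type genes (red). CAV2 and SOX9 lie among bright spots at differences of 0.48 and 0.33, and LUM nearer the median signal at 0.45. All of these lie inside the cloud of other spots. VIM lies among dim spots at -0.20.

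The spread between replicates differed by group. At the 16 spots the median SD was 0.099 in DN-TRF2 and 0.30 in GFP control cells, against 0.13 and 0.24 over all spots. The SD was larger in the controls at 13 of the 16 spots and at 78.0% of all spots. The lowest of the 6 arrays was a control at 15 of the 16 spots, namely replicate 1 at 8, replicate 2 at 5 and replicate 3 at 2. The 8 include ANXA2 spots 1, 3, 4 and 5, so spots of 1 gene are counted separately. Over all spots the lowest array was a control at 64.4%, with replicate 1 at 22.3%, replicate 2 at 26.9% and replicate 3 at 15.1%. The highest was also a control at 10 of the 16, and at 70.1% of all spots. Since the list was chosen on this contrast, these counts by array are a description and test nothing. As a mean over the 10 genes, the arrays lay at -0.011, 0.12 and 0.12 in DN-TRF2, and at -0.17, 0.039 and -0.095 in GFP control cells, relative to each gene's own mean. Control replicate 2 lay above DN-TRF2 replicate 1, so the groups overlapped in this mean.

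A further 6 lists of related genes, with 83 measured genes in all, gave 0 calls in either direction by limma's adjusted p, with medians near that of all genes. Among caveola and raft genes 3 of 9 had a higher mean in DN-TRF2 cells, and the median was -0.023. Extracellular matrix genes had 10 of 21 higher (median -0.013) and cell-matrix adhesion receptors and their linkers 4 of 15 (-0.055). Other annexins and galectins had 5 of 14 higher (-0.019), intermediate filament and contractile genes 7 of 11 (0.027), and mesenchymal and neural crest regulators 7 of 13 (0.015). The 10 genes were chosen with this contrast known, and these lists leave them out. That the median of the 10 genes lies above those of these lists is therefore a description, and the difference was not tested.

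The genes of smallest p in these lists, a choice that favours large differences, went both ways. Those described in detail are the ones whose groups did not overlap. The groups overlapped at others, such as GFAP (0.47), TGFBI (0.42), TGFB1 (-0.30) and FLOT2 (-0.28), each at its spot of smallest p. MGP, a matrix protein that restrains calcification, read 8.70, 8.99 and 8.83 in DN-TRF2, against 8.18, 8.52 and 8.09 in GFP control cells, a difference of 0.57 ± 0.16 (SE) with no overlap. SPP1, which encodes the integrin ligand osteopontin, differed by 0.32 ± 0.16 at 1 of its 2 spots and was not higher at the other. MSN, which encodes moesin, a linker of CD44 to actin, read 8.49, 8.40 and 8.47 in DN-TRF2, against 8.96, 8.51 and 8.74 in GFP control cells. Its difference was -0.29 ± 0.16, again with no overlap. LGALS3BP, a secreted galectin-binding protein, differed by -0.34 ± 0.16 at 1 of its 3 spots, with 1 of the 3 higher. None of these passed limma's test (adjusted p = 0.999 for each).

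Markers of other cell types gave 0 calls as well. The 4 measured Schwann and glial genes, S100B, ERBB3, MBP and CRYAB, all had a higher mean in DN-TRF2 cells (median 0.21). By array their mean lay at 0.084, 0.14 and 0.064 in DN-TRF2, and at -0.092, -0.36 and 0.17 in GFP control cells, so control replicate 3 was the highest array. All 4 spots gave a signal above the stand-in on every array, and the list's part in the values of the 10 genes was not tested. Neuroblast identity genes had 6 of 11 higher (median 0.026), epithelial markers 3 of 7 (-0.0019) and blood markers 2 of 4 (0.066). Single neuroblast genes differed in both directions by amounts near the 0.48 of CAV2. At the spot of smallest p, GATA3 differed by 0.45 ± 0.15 (SE), with all 3 of its spots higher. CHGA, a granule protein, differed by -0.53 ± 0.20 at its own such spot, with 2 of its 3 spots higher. Neither passed. The 1 endothelial marker measured, ENG, differed by -0.055. Its spot was dim (mean signal 6.00) and not above the stand-in on every array.

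**Figure D5:**
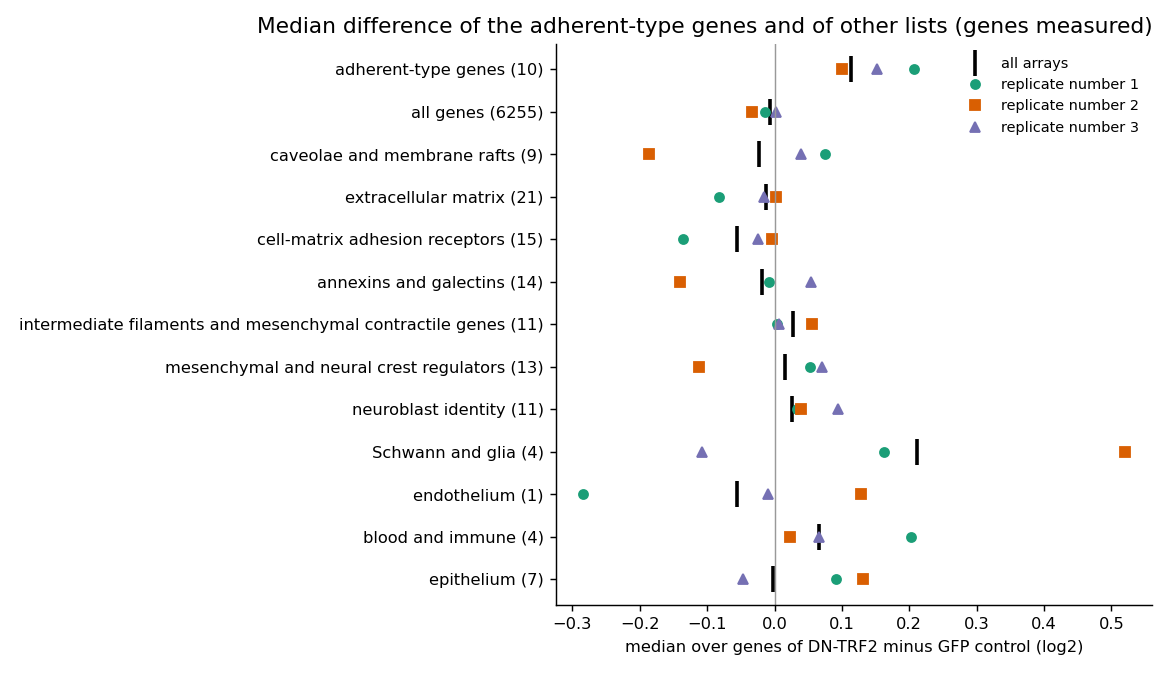
Median over genes of the difference between DN-TRF2 and GFP control (log2) for the adherent-type genes, all genes, 6 lists of related genes and 5 lists of cell type markers, with the number of genes measured in brackets. Black bars use all arrays and coloured markers 1 replicate number each. Spots were averaged per gene. The medians of the adherent-type genes lie right of 0 at every number, as do those of neuroblast identity, blood and intermediate filament genes. Over the 16 single spots the median at number 2 was -0.010.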

How the data were processed

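RNA abundance was measured on 6 arrays, 1 per sample. The authors deposited linear intensity values per spot; for image software, background treatment and scaling, the sources used here give no statement. The 384 blank positions (each 25th spot) and 47 further spots at the stand-in value of 10 on every array were dropped, leaving 9169. Spots were named through the platform annotation, and symbols updated by gene ID (8514 of 8517 annotated spots matched). An offset of 50 was added, log2 taken and the arrays quantile-normalized. Fold changes on this scale understate changes of dim spots. limma 3.58.1 (R 4.3.3; lmFit and eBayes, two-sided) was fitted to all spots with Benjamini-Hochberg adjustment, and checked on simulated data. The precision is limited by the number of arrays: the median half-width of a 95% interval over all spots was 0.47 (log2). It combines limma's SE with the 4 residual degrees of freedom alone, and is wider than with the degrees of freedom of limma's test.

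Members, lists and tests were chosen with earlier results of these data known. Named in the text are all members and, from the up to 3 genes of smallest p per related list, those whose groups did not overlap and some others. With group means removed, DN-TRF2 and GFP control arrays of number 1, 2 and 3 correlated at 0.39, 0.30 and 0.25, so the numbers, which the labels give, were taken to pair the samples. Signals were compared within a spot only. Clones of related genes can cross-hybridize. Alternatives covered the offset, normalization, dim spots, position, array weights, the replicate block and each array left out.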

Additional observations from a re-analysis of the deposited data

How the results depend on the processing

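Limma called 0 spots under 18 of 19 alternatives. The exception was an offset of 1, with 1 call: BOP1, named after its value was seen, which read the stand-in 10 on all 3 DN-TRF2 arrays, against 0.22, 1.36 and 0.56 on the GFP control arrays. Related-list genes gave 0 calls throughout. The median difference over the 10 genes (0.11) ran from 0.080 to 0.17 with 1 array left out, the highest without GFP control replicate 2, and came to 0.25 over 6 genes when only spots above median signal were kept. With the replicate block it stayed at 0.11, as the design is balanced, with 8 genes higher, and 0 spots passed, so the block changed no call. Where all 10 genes were measured, 7 to 9 had a higher mean. With the filters on dim spots, which each left out VIM and ANXA1, the count was 7 of 8 and 6 of 6. The share of all genes with a higher mean also moved with the setting. It ran from 42.6% with median scaling (7 of the 10 genes) to 56.3% with no normalization (9 of the 10). The 313 spots with unadjusted p under 0.05 came to 583 with array weights and 81 with no normalization. Of 295 spot values under alternatives, 18 had the other sign. CAV1 spot 1, CAV2, LUM, SPARC spot 2, VIM and SOX9 kept their sign under all that were run. Signal over background could not be measured, since blanks hold the stand-in.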
